A study of Mus musculus with 5 samples.

Results

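Among the genomic sites occupied by the transcription factor SOX11 in mouse keratinocytes, 809 of 21270 stood in the first 10% of rows of the SOX11 peak list and shared no base with a peak of SOX4, its closest relative. These early SOX11-only peaks were chosen by 2 measured properties: their place in the deposited SOX11 list, and the absence of a SOX4 peak. Of the peaks in these early rows, 38.0% were SOX11-only and 1318 were shared with SOX4. Over the whole SOX11 list 88.1% of peaks overlapped no SOX4 peak. Since SOX4 was used in the choice, neither the share without SOX4 nor the distance to SOX4 is a finding. The order of the rows is not explained in the sources used here, and no peak carries a height, score or p-value, so a place in the list is given as a place and not as a strength of binding.

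The cells were primary keratinocytes of newborn mice of the genotype Krt14-Cre;Sox11fl/fl;Sox4fl/fl (dcKO), labelled as of mixed 129SvEx:C57BL/6 background; per the study's methods the Krt14-Cre line crossed in was FVB/N. In these mice Cre recombinase is driven by the promoter of keratin 14, a keratin of the basal epidermal layer, and removes the floxed *Sox11* and *Sox4* alleles, in the control library as in the others. FLAG-tagged SOX11 or SOX4 was returned by a doxycycline-inducible lentivirus (pINDUCER21) and precipitated with an anti-FLAG antibody. There were 2 SOX11-FLAG libraries, 2 SOX4-FLAG libraries and 1 control library, which carries the name input in its title and IgG as its antibody. Each list pools both libraries of its factor, and no list of the control was used here. There is therefore no spread between replicates, the read depth behind a peak is unknown, and a site missing from the SOX4 list, which holds 2669 peaks, is not shown to be free of SOX4. The question put to these sites was how they differ, in position, sequence and neighbouring genes, from the early peaks that SOX4 shares and from the 17939 SOX11-only peaks further down the list.

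SOX11 and SOX4 belong to the SOXC group of SOX proteins, which bind the minor groove of DNA through an HMG box that recognises a short core and bends the helix. Both factors act in embryonic progenitor cells and have closely similar DNA-binding domains. AP-1 dimers of FOS and JUN proteins and the TEAD factors of the Hippo pathway are widespread at enhancers of epidermal keratinocytes, and their motifs are read here beside that of SOX.

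Motifs were searched on both strands. The SOX octamer stands for CATTGTTC, CATTGTCC, CTTTGTTC or CTTTGTCC without a mismatch. The AP-1 heptamer stands for TGACTCA or TGAGTCA, and the TEAD hexamer for GGAATG. Longer 10-letter SOX, AP-1 and TEAD motifs were read from the logos of the study's own HOMER motif result and were allowed 1 mismatch. Each short form is the centre of its 10-letter motif, so the short and the long count of a factor overlap, although an octamer whose flanks differ can miss the long form. The following 6 peaks show the kinds of sequence met in the early rows, each on the plus strand of mm9 with SOX octamers and AP-1 heptamers in capitals. Only peaks that touch no annotated UTR are shown. Among those, the first 3 are the earliest SOX11-only peaks outside promoters that hold a SOX octamer, the next is the earliest with an AP-1 heptamer and no SOX motif, the next the earliest in a promoter with neither, and the last the earliest peak shared with SOX4.
SOX11-only, nearest to Gm1968, chr16:29977988-29978245: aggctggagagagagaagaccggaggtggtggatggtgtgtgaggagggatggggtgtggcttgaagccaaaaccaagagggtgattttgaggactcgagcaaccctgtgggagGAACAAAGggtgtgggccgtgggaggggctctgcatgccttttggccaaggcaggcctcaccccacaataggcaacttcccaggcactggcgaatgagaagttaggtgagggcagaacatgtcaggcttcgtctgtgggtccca
SOX11-only, nearest to Tcfap2c, chr2:172469586-172469843: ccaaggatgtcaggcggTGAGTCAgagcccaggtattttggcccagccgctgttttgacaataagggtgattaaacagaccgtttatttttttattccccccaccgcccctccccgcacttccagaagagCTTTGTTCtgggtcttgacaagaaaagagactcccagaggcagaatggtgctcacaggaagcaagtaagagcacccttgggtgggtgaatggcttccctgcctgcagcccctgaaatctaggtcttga
SOX11-only, nearest to 2310035K24Rik, chr2:131030502-131030759: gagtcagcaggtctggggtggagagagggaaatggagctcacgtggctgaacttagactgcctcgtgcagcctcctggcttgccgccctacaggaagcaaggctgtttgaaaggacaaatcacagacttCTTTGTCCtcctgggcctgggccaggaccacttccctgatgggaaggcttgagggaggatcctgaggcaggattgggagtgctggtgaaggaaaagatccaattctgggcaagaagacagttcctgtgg
SOX11-only with AP-1, nearest to Gm1968, chr16:29915474-29915731: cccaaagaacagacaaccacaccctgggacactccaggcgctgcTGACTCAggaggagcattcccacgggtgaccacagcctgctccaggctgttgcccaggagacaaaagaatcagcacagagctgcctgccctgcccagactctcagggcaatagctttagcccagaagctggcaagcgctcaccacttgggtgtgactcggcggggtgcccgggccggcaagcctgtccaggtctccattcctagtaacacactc
SOX11-only, Bcl2l11 promoter, chr2:127953753-127954010: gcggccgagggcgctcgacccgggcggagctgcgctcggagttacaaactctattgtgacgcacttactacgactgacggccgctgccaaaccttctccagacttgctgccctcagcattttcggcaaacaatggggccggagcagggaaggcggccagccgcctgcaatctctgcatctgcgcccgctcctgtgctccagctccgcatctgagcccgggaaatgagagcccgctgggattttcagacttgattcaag
Shared with SOX4, Lfng intron, chr5:141087167-141087424: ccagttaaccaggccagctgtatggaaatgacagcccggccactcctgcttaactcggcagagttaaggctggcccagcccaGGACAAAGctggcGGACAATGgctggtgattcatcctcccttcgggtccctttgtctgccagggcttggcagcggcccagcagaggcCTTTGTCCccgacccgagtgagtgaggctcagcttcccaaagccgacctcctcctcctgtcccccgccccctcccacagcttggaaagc
In the intergenic peak nearest to *Gm1968* the octamer lay on the minus strand at bases 115 to 122 of the 258, close to the centre. In the peak nearest to *Tcfap2c*, the gene of the epidermal transcription factor AP-2 gamma, the octamer CTTTGTTC lay at bases 131 to 138 and an AP-1 heptamer at bases 18 to 24. The peak nearest to *2310035K24Rik* held CTTTGTCC at bases 130 to 137. The AP-1 peak lay in the same neighbourhood of *Gm1968* as the first, 3.74 kb from a SOX4 peak. The shared peak in an intron of *Lfng*, which encodes a modifier of Notch receptors, held 3 octamers, at bases 83 to 90, 96 to 103 and 170 to 177.

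The SOX octamer separated the early SOX11-only peaks from both other sets. It was present in 268 of the 809 peaks, or 33.1% (95% Wilson interval 30.0 to 36.4%), in 717 of 1318 early shared peaks, or 54.4% (51.7 to 57.1%), and in 15.9% (15.4 to 16.4%) of the later SOX11-only peaks. Over all SOX11 peaks the share was 19.9%. The odds of holding an octamer were 0.415 times those of early shared peaks (adjusted p = 1.04e-20) and 2.62 times those of later SOX11-only peaks (adjusted p = 3.86e-31; both two-sided Fisher's exact tests, adjusted after Benjamini-Hochberg over 11 measures). In sequence of the same width 2 kb downstream of the same 809 peaks, 4.08% held an octamer. The 3 sets therefore formed an order, with early SOX11-only peaks below the shared ones and above the later ones, and intervals that did not overlap. These tests and intervals cover counting error over peaks of pooled lists, and peaks are not replicates of a condition.

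The 10-letter SOX motif gave the same order. It was found in 65.4% of early SOX11-only peaks (62.0 to 68.6%), in 78.6% of early shared peaks (76.3 to 80.7%) and in 43.2% of later SOX11-only peaks (42.5 to 44.0%), beside 47.3% of all SOX11 peaks. The odds ratio was 0.514 against early shared peaks (adjusted p = 2.09e-10) and 2.48 against later SOX11-only peaks (adjusted p = 3.90e-34, Fisher's exact test). With 1 mismatch allowed, 30.8% of the sequences 2 kb downstream also held it.

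AP-1 motifs did not separate the early sets from each other. The 10-letter AP-1 motif was present in 35.8% of early SOX11-only peaks (32.6 to 39.2%) and 36.4% of early shared peaks (33.9 to 39.1%), with 41.1% over all SOX11 peaks. The odds ratio between the early sets was 0.976, with a 95% interval from 0.809 to 1.18 (adjusted p = 0.891, Fisher's exact test). Later SOX11-only peaks held it more often, at 42.1% (41.4 to 42.8%), and here the difference passed the test (odds ratio 0.768, adjusted p = 0.00111, Fisher's exact test). The AP-1 heptamer stood at 24.0%, 26.5% and 29.2% in the same 3 sets and at 28.5% over all SOX11 peaks. For the heptamer the odds ratio between the early sets was 0.876 (interval 0.711 to 1.08, adjusted p = 0.368), and against the later peaks it was 0.765 (adjusted p = 0.00290, Fisher's exact test). The AP-1 difference from the later peaks moved with GC content: within quartiles of GC the odds ratio for the 10-letter motif was 0.879 and no longer passed (p = 0.111, Mantel-Haenszel chi-square test).

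TEAD motifs did not separate the sets by the test. The 10-letter TEAD motif was in 20.4% of early SOX11-only peaks, 19.2% of early shared peaks and 20.5% of later SOX11-only peaks, beside 20.3% over all SOX11 peaks. The odds ratio between the early sets was 1.08 (interval 0.860 to 1.35, adjusted p = 0.787, Fisher's exact test). The TEAD hexamer was in 22.9%, 22.3% and 23.1% of the 3 sets and in 22.8% of all SOX11 peaks. Sequence 2 kb away from the early SOX11-only peaks held the 10-letter motif in 14.5% of cases and the hexamer in 14.2%.

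**Figure D1:**
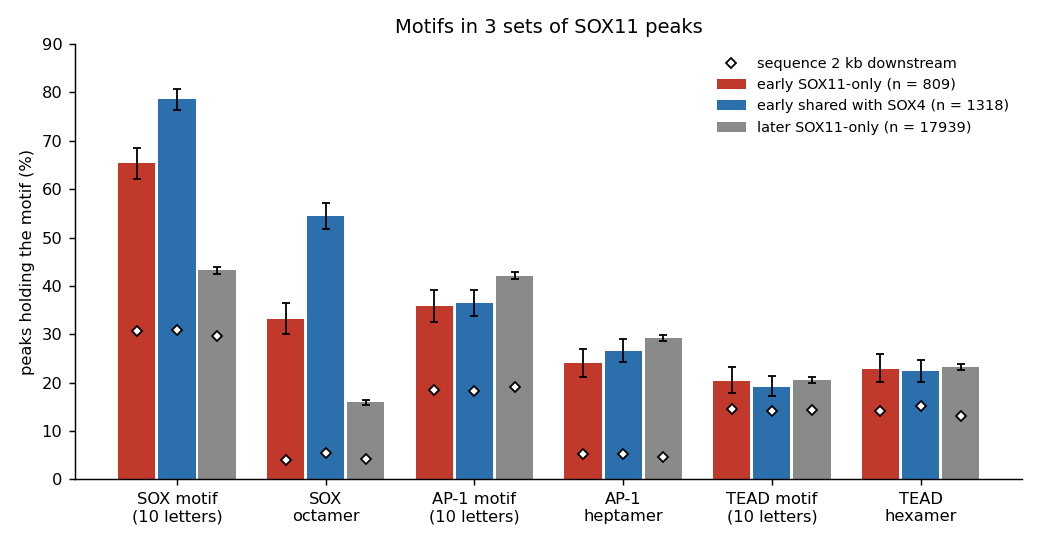
Share of peaks holding each motif (y axis, percent) in 809 early SOX11-only peaks, 1318 early shared peaks and 17939 later SOX11-only peaks, with 95% Wilson intervals as bars and the share in sequence 2 kb downstream as open diamonds. The SOX octamer stands at 33.1%, 54.4% and 15.9%, while the TEAD motif stands between 19.2% and 20.5%.

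The gap in octamer share between the early sets lay mostly in the forms that begin with CTTTGT. CTTTGTTC was found in 15.2% of them (12.9 to 17.8%) and in 31.7% of early shared peaks (29.3 to 34.3%), and CTTTGTCC in 11.5% and 15.6%. CATTGTTC was in 5.07% and 7.51%. CATTGTCC was in 3.46% of early SOX11-only and 2.88% of early shared peaks, with overlapping intervals. More than 1 octamer was uncommon: 2.35% of early SOX11-only peaks held 2 and none held more, against 5.01% of early shared peaks with 2 or more.

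All octamers were ranked by a score that set their presence in early SOX11-only peaks against that in the sequences 2 kb downstream. The order is that of the score and not of the plain gap in share. CTTTGTTC came first, at 15.2% against 1.73%. The second was CCCGCCCC, a GC-box sequence of the kind bound by SP and KLF proteins, at 13.8% against 1.73%, and early shared peaks held it in 12.1%. The downstream sequence was not matched for GC content or for promoters. Its median GC content was 47.3%, against 54.3% in the early SOX11-only peaks. Of the first 20, 3 more were GC-rich sequences of this kind, 2 were forms of the AP-1 heptamer with 1 added base, and the other 14 held the core CTTTGT, counting CTTTGTTC. The widest gaps below early shared peaks were those of CTTTGTTC and of AGAACAAA, its overlapping neighbour on the other strand, at 7.66% against 18.7%. Gaps in the other direction were smaller, the widest being CAGAGAGG, in 5.81% of early SOX11-only and 2.58% of early shared peaks. This ranking is a description with no test.

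Where an octamer was present it lay at the centre of the peak. The median distance from the centre was 11 bp in early SOX11-only peaks, 8 bp in early shared peaks and 19 bp in later SOX11-only peaks. Within 25 bp of the centre lay 74.2% of octamers in early SOX11-only peaks, 79.6% in early shared peaks and 59.7% in later ones. AP-1 heptamers were spread over the peak, with a median distance of 47 bp and 20.1% of matches within 25 bp in early SOX11-only peaks.

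**Figure D2:**
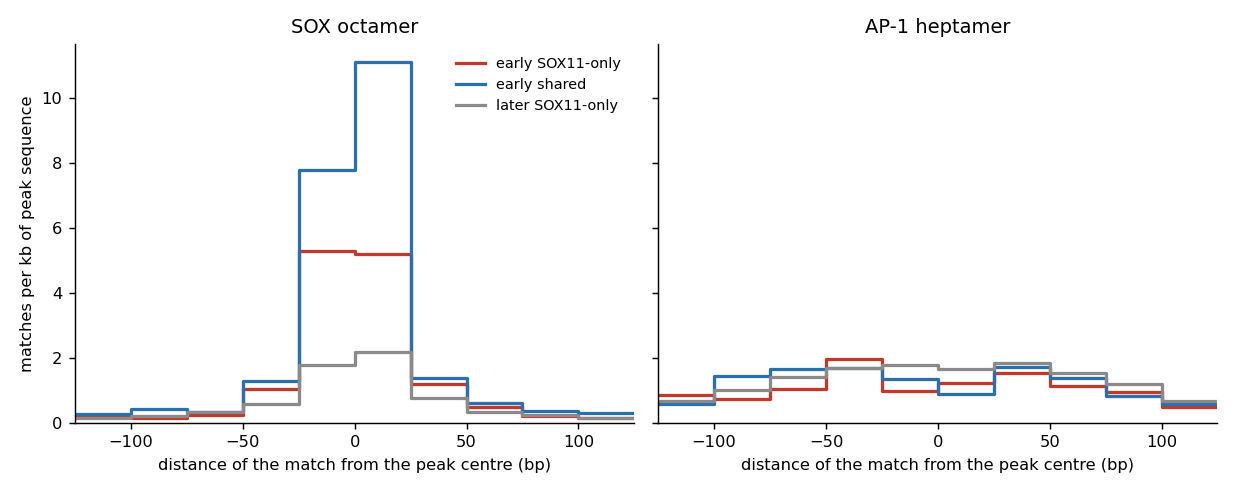
Matches per kb of peak sequence (y axis) by distance from the peak centre (x axis, bp, bins of 25 bp) for the SOX octamer on the left and the AP-1 heptamer on the right in the 3 sets. Octamers pile up within 25 bp of the centre, with early SOX11-only peaks between the shared and the later ones, and AP-1 heptamers show no such peak.

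Taken in combination, 41.5% of early SOX11-only peaks held a 10-letter SOX motif without AP-1, 23.9% held both, 12.0% held AP-1 without SOX and 22.6% held neither. In early shared peaks the same classes held 49.0%, 29.6%, 6.83% and 14.6%. Peaks with none of the 3 factors' motifs made up 19.2% of early SOX11-only peaks (16.6 to 22.0%), 12.5% of early shared peaks (10.8 to 14.4%) and 27.8% of later SOX11-only peaks. Of the 155 early SOX11-only peaks with none, 67 lay in promoters.

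No genomic class separated the early sets by the test. A promoter here begins 1 kb before a protein-coding transcription start and ends 100 bp past it, and a peak was placed by its centre. Promoters held 208 early SOX11-only peaks, or 25.7% (22.8 to 28.8%), and 25.4% of early shared peaks (23.1 to 27.8%), and the odds ratio was 1.02 with an interval from 0.826 to 1.25 (adjusted p = 0.891, Fisher's exact test). Introns held 36.2% and 33.2%, the space between genes 35.5% and 38.5%, and exons 2.60% and 2.81%, and none of these passed the test (adjusted p of 0.368 or above). Against the later SOX11-only peaks, of which 23.3% lay in promoters and 40.1% between genes, the intergenic share was lower (odds ratio 0.820, adjusted p = 0.0151) and the promoter share did not pass (adjusted p = 0.147, Fisher's exact test). From the nearest start, the median distance was 5.55 kb in early SOX11-only peaks, 8.92 kb in early shared peaks and 11.99 kb in later ones. Distances from 1 to 10 kb held 26.1% of early SOX11-only and 19.8% of early shared peaks, and distances of 100 kb or more held 6.43% and 9.79%.

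Early SOX11-only peaks held fewer SOX octamers than shared ones both in promoters and elsewhere. In promoters 31.3% of early SOX11-only and 49.9% of early shared peaks held one, with an odds ratio of 0.457. Outside promoters the shares were 33.8% and 56.0%, with an odds ratio of 0.402, and the odds ratios of the 2 classes were not told apart (adjusted p = 0.544, Breslow-Day chi-square test over 6 motif forms). Later SOX11-only peaks differed more by class, with octamers in 7.69% of promoter peaks, 19.5% of intronic and 17.6% of intergenic peaks. Of the 208 early SOX11-only promoter peaks, 36.1% held neither a 10-letter SOX nor an AP-1 motif, against 26.9% of early shared and 62.7% of later SOX11-only promoter peaks.

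Early SOX11-only peaks were GC-rich more often than the shared ones. The share at or above the median GC content of all SOX11 peaks (51.6%) was 65.5% (62.2 to 68.7%) in early SOX11-only peaks, 58.1% (55.4 to 60.8%) in early shared peaks and 49.5% in later SOX11-only peaks. The odds ratio was 1.37 against early shared peaks (interval 1.14 to 1.65, adjusted p = 0.00259) and 1.94 against later peaks (adjusted p = 1.38e-18, Fisher's exact test). The difference lay in the lower part of the distribution: the lower quartile, median and upper quartile were 49.2, 54.3 and 60.5% in early SOX11-only peaks and 48.1, 53.1 and 61.2% in early shared peaks. The direction was not the same in every class. In promoters the median GC content was 63.6% in early SOX11-only and 65.1% in early shared peaks. It was 53.1% and 51.2% in introns, 51.6% and 50.0% between genes, and 59.7% in both sets in exons. Measured over 100 bp around the centre, the odds ratio between the early sets was 1.16 and did not pass (p = 0.104, Fisher's exact test). Sequence 2 kb downstream had a median GC content of 47.3% for early SOX11-only, 45.7% for early shared and 44.6% for later SOX11-only peaks.

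Along the early rows, the share of peaks without SOX4 climbed from 4.69% in the first of 10 equal blocks of rows (10 of 213 peaks, interval 2.57 to 8.43%) to 63.8% in the last (136 of 213, 57.2 to 70.0%). Early SOX11-only peaks thus stood later in the list than early shared ones, with median rows of 1461 and 767.5. Below the early rows, 93.7% of 19143 peaks were without SOX4. The place in the list and the absence of SOX4 are both what the peaks were chosen on, so this climb is given without a test.

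Since SOX octamers also became less frequent down the list, the motif difference was read within stretches of rows. In the first 5 blocks, 34.4% of 212 SOX11-only peaks (28.4 to 41.1%) and 60.9% of 852 shared peaks (57.6 to 64.1%) held an octamer. In the last 5 blocks the shares were 32.7% of 597 (29.0 to 36.5%) and 42.5% of 466 (38.1 to 47.0%). Pooled over 5 blocks, the SOX11-only share hardly moved between these stretches, while the shared one came down. By single blocks the SOX11-only share was uneven, at 70.0% in block 1 and 25.4% in block 4. In blocks 8, 9 and 10 it was 34.1, 36.4 and 34.6%, against 35.6, 47.5 and 41.6% of shared peaks. The intervals of the 2 sets overlapped in each of these last 3 blocks, and also in blocks 1, 2, 6 and 7. They lay apart in blocks 3, 4 and 5. Stratified by 10 blocks of rows the odds ratio for the octamer was 0.528 (p = 4.23e-10, Mantel-Haenszel chi-square test), in place of 0.415 without strata. In the first block, 7 of 10 SOX11-only peaks held an octamer, and the interval from 39.7 to 89.2% spans the shared value of 64.0%.

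**Figure D3:**
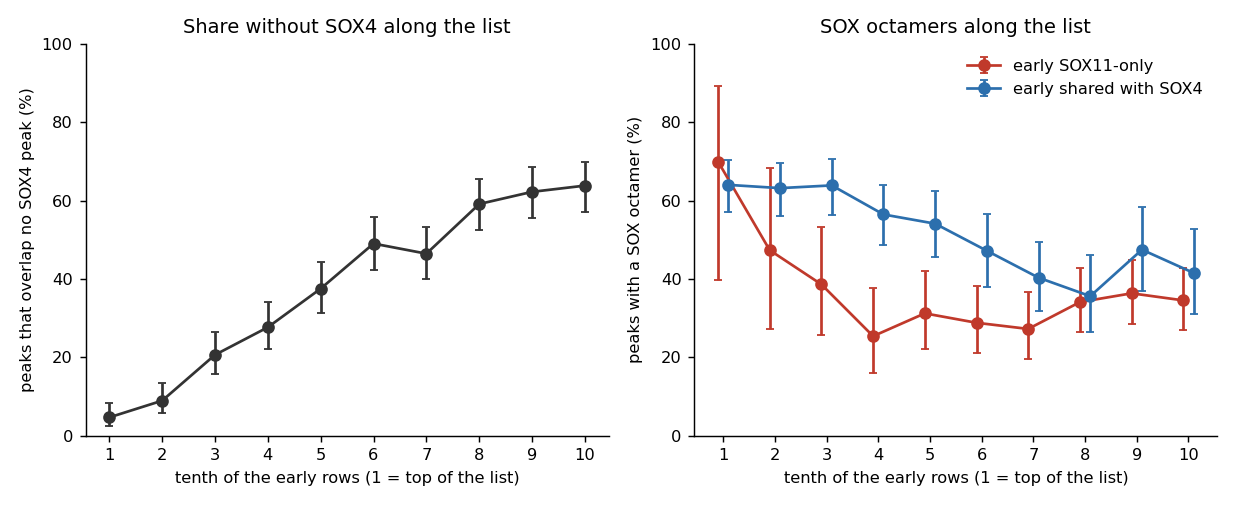
Left, the share of peaks that overlap no SOX4 peak (y axis, percent) in each of 10 equal blocks of the early rows (x axis, 1 at the top of the list). Right, the share holding a SOX octamer in early SOX11-only and early shared peaks of each block, with 95% Wilson intervals in both panels; the left curve climbs from 4.69 to 63.8%.

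The early SOX11-only peaks were unevenly spread over the chromosomes. Chromosome 2 held 253 of them, or 31.3%, while it held 11.4% of early shared peaks and 7.57% of all SOX11 peaks. With chromosomes 11 (86 peaks) and 5 (85 peaks) it accounted for 424 peaks, or 52.4%, on chromosomes that held 20.3% of all SOX11 peaks. Chromosome 13 held none, although it had 1033 SOX11 peaks, and chromosome 14 held 2 of its 696. The order of the list moved with this: 25.03% of the SOX11 peaks of chromosome 2 stood in the early rows and 2.23% of those of chromosome 13, and the median row ran from 4443.5 on chromosome 2 to 18730 on chromosome 13. In the SOX4 list too, 28.7% of the peaks of chromosome 2 and 0.633% of those of chromosome 13 stood in the first 10% of rows. Overlap with SOX4 over all rows differed little, at 11.6% of SOX11 peaks on chromosome 2 and 14.2% on chromosome 13. What sets the place of a chromosome in the lists was not tested.

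The motif difference was measured with and without chromosome 2. On chromosome 2, 24.9% of the 253 SOX11-only peaks and 50.0% of the 150 early shared peaks held a SOX octamer. On the other chromosomes 36.9% of 556 and 55.0% of 1168 did, with an odds ratio of 0.479 (two-sided p = 2.04e-12 by Fisher's exact test). Stratified by chromosome the odds ratio was 0.469 (p = 9.10e-15, Mantel-Haenszel chi-square test). Where early was taken as the first 10% of each chromosome's own rows, 688 peaks were SOX11-only, of which 35.0% held an octamer against 53.6% of 1430 shared peaks. The GC difference also passed without chromosome 2, with an odds ratio of 1.54 (two-sided p = 6.90e-05 by Fisher's exact test).

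**Figure D4:**
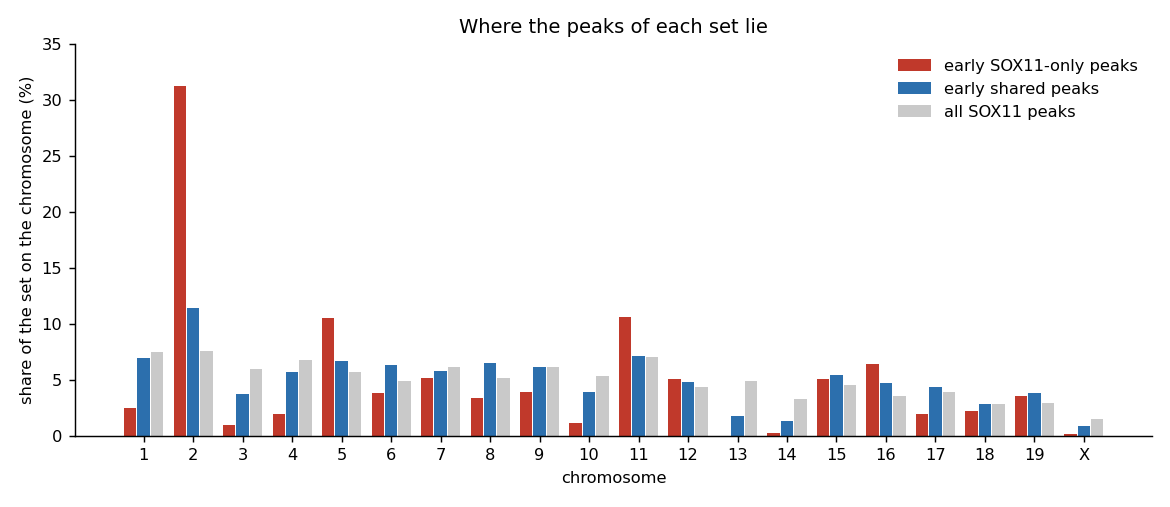
Share of each set that lies on each chromosome (y axis, percent, bars from 0) for early SOX11-only peaks, early shared peaks and all SOX11 peaks. Chromosome 2 holds 31.3% of early SOX11-only peaks and 7.57% of all SOX11 peaks, and chromosome 13 holds none of the former.

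The gap to the nearest SOX4 peak, which the choice of peaks bounded from below, is given as a description. Its median was 116 kb (interval of the median 100.4 to 134.9 kb) for early SOX11-only peaks and 174 kb for later SOX11-only peaks. A SOX4 peak began within 1 kb of 32 of the 809 peaks (3.96%) and within 100 kb of 376 (46.5%), compared with 0.892% and 35.8% of later peaks. The nearest was the promoter peak of *Dhx30*, which encodes an RNA helicase, at 19 bp. An intergenic peak nearest to *Eef1a1*, a translation elongation factor gene, lay at 114 bp. Both would count as shared if SOX4 peaks were widened by 500 bp, as would 19 in all. The farthest were intergenic peaks nearest to *Cd47*, 4304.5 kb away, and *Gm5407*, 3642 kb away, and the promoter peak of *Cnot7*, a deadenylase subunit gene, 3749.7 kb away.

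**Figure D5:**
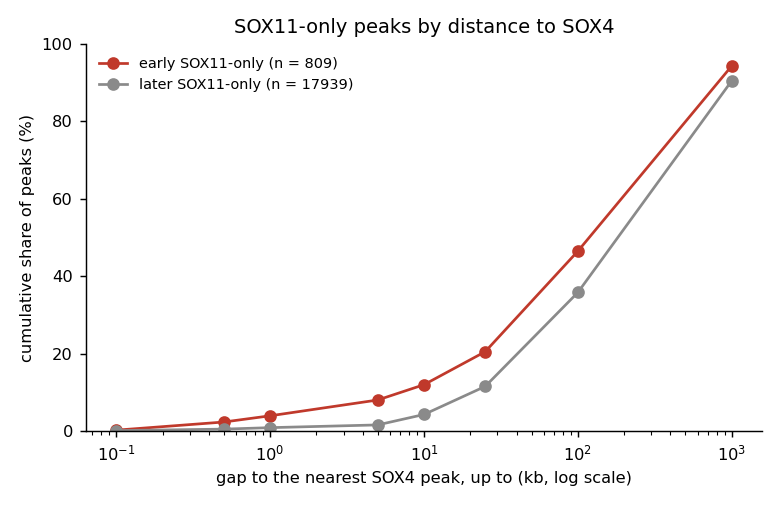
Cumulative share of peaks (y axis, percent) whose gap to the nearest SOX4 peak is at most the distance on the x axis (kb, log scale), for 809 early and 17939 later SOX11-only peaks. Within 100 kb lie 46.5% of the early and 35.8% of the later peaks.

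At the row limit, the last 3 SOX11-only peaks inside were those in introns of *Zhx2* (row 2125) and *Eaf2* (row 2126) and an intergenic one nearest to *Mx2* (the last early row), and none held a SOX octamer. The first 3 outside lay in introns of *Synj2* (row 2128), *Kdm2a* (row 2130) and *Mxi1* (row 2131), and 2 of them held one. At the overlap limit, the early shared peaks with the smallest overlaps were the promoter peak of *Plscr3* (3 bp), and intergenic peaks nearest to *Ssbp4* (10 bp) and *Spin1* (22 bp).

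Another SOX11 peak lay within 25 kb of 72.9% of them (69.8 to 75.9%), of 65.7% of early shared peaks (63.1 to 68.2%) and of 58.7% of later SOX11-only peaks. A peak shared with SOX4 lay within 25 kb of 159 of them, or 19.7%, and of 10.9% of later SOX11-only peaks. These shares are read from the lists that chose the peaks and carry no test.

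The 809 peaks were assigned to the gene with the nearest protein-coding transcription start, which names a neighbour and not a regulated gene. They fell to 696 genes, or 3.11% of the 22380 protein-coding genes. Of these, 605 had 1 such peak, 74 had 2 and 17 had 3 or more. Another SOX11 peak outside the set was also nearest to 497 of the 696 genes, or 71.4%. The matching share over all genes with a SOX11 peak was not computed, so this is not given as a trait of these genes. For 201 genes (28.9%) a SOX4 peak was nearest to the same gene, so the absence of SOX4 from a site was often not its absence from the gene. Over all 10424 genes with a SOX11 peak, 21.3% also had a SOX4 peak.

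The first 10 early SOX11-only peaks in list order opened at row 98. They were the intergenic peaks nearest to *Gm1968* and *Tcfap2c* described above (rows 98 and 102), a peak in an exon of *Fjx1* (row 122), and the promoter peak of *Fam129b* (row 123), 77 bp upstream of its start. Next came promoter peaks of *Ttyh3* (row 163) and *Tnrc18* (row 168), the intergenic peak nearest to *2310035K24Rik* (row 177), and promoter peaks of *Vash2* (row 179), whose product removes tyrosine from tubulin, and *Rapgef3* (row 208), the gene of the cAMP sensor EPAC. The last of them lay in an intron of *Tnrc18* (row 213). Of these 10, 7 held a SOX octamer and 2 an AP-1 heptamer. The exonic *Fjx1* peak held 2 octamers and lay 609 kb from the nearest SOX4 peak. The *Fam129b* promoter peak held no SOX, AP-1 or TEAD motif and had a GC content of 65.9%.

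The gene with most such peaks was *Etl4* on chromosome 2, with 5 of its 11 SOX11 peaks. They lay in its promoter and introns, from 19 bp to 39.0 kb from the nearest of its starts and from 9.78 to 48.5 kb from a SOX4 peak, and 4 of the 5 held a SOX octamer. *Hnrnpa3*, the gene of an RNA-binding protein, had 4 on chromosome 2, of which 1 held an octamer. *Src*, which encodes a tyrosine kinase at cell-matrix adhesions, had 4 of its 6 SOX11 peaks among them, in introns, an exon and upstream, and none held an octamer. *Vmp1*, a gene needed for autophagy, had 4 on chromosome 11, also without an octamer. *Tnrc18*, *Bcl2l11*, *Tgif1* and *Itga3* had 3 each. *Src* and *Bcl2l11*, like *Etl4* and *Hnrnpa3*, lie on chromosome 2. That chromosome held 31.3% of early SOX11-only peaks and 7.57% of all SOX11 peaks, and the ranking of genes was not adjusted for it.

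*Bcl2l11* encodes the pro-apoptotic protein BIM, and its promoter peak, centred 15 bp downstream of the start, is the one printed above without SOX or AP-1 motif. *Tgif1*, a homeobox repressor of TGF-beta signalling, had 1 peak in its promoter and 2 in introns of *Dlgap1*. *Itga3* encodes the alpha-3 chain of a laminin-binding integrin of basal keratinocytes. It had 4 SOX11 peaks and no SOX4 peak, and 2 of its 3 early SOX11-only peaks held an octamer.

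In gene lists of pathways and cell types, 3.11% is the share of all protein-coding genes that had an early SOX11-only peak and 5.21% the share with an early shared peak. All lists stood above both shares, as they did for SOX11 peaks of any row, where 46.6% was the share of all genes. The lists held genes known for their part in these cells, and no test was made of them. Nor were they adjusted for chromosome. Of the genes named below, *Tcfap2c*, *Gata3*, *Lama5*, *Ctnnd1*, *Rnd3*, *Notch1*, *Jag1*, *E2f1* and *Rbl1* have their early SOX11-only peaks on chromosome 2. Keratinocyte transcription factors had such a peak at 8 of 32 genes and an early shared peak at 9. They included *Tcfap2c*, *Gata3* and *Trp63*, the last being the gene of p63, the master regulator of the epidermal lineage. The *Trp63* peak lay in an intron, 54.8 kb from a SOX4 peak, and held an AP-1 heptamer and no SOX octamer.

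The next list joined AP-1 subunit genes with genes of related leucine-zipper proteins, among them small MAF and BACH genes. Of its 16 genes, 3 had an early SOX11-only peak. They were *Fosl2* in its promoter, and *Bach1*, a related gene, and *Fos* at intergenic sites 33.4 kb and 22.0 kb upstream. All 3 also had a SOX4 peak. The *Fos* site lay 1.65 kb from its nearest SOX4 peak. The *Bach1* site held a SOX octamer and 2 AP-1 heptamers.

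Of 32 Hippo pathway genes 4 had such a peak and 8 an early shared one. *Vgll4*, which encodes a TEAD cofactor that competes with YAP, had it in an intron. *Frmd6* had it 151 kb upstream, with 2 octamers, and both genes also had 3 early shared peaks. *Nf2*, the gene of the upstream regulator merlin, and *Amotl2*, whose product binds YAP, had promoter peaks with a 10-letter SOX motif and no octamer.

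Of 28 genes of integrins and the basement membrane, 7 had an early SOX11-only peak and 5 an early shared one, and 1 of the 7 had a SOX4 peak. They included *Itga3*, *Lama5*, the gene of a laminin chain, *Col4a2*, a collagen IV gene whose peak lay in an intron of *Rab20*, and *Itgb5* in an intron, 699.9 kb from SOX4. Of 27 genes of junctions and keratins, 7 had an early SOX11-only peak and 7 an early shared one. *Krt14*, the basal keratin gene, had a single SOX11 peak, in its promoter, without a SOX, AP-1 or TEAD motif and 38.2 kb from a SOX4 peak. The Cre transgene of these cells is driven by the promoter of the same gene. Whether the reads under this peak came from the transgene or from the gene's own promoter was not tested. The peak in an intron of *Cdh3*, the P-cadherin gene, held a SOX octamer and an AP-1 heptamer. *Ctnnd1*, the p120 catenin gene, had 1 such peak beside 3 early shared ones, and *Krt8* had 1 at 23.4 kb.

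The actin and motility list had 5 of 50 genes with an early SOX11-only peak and 13 with an early shared one. *Rnd3*, an atypical small GTPase that lowers contractility, had 2 of its 16 SOX11 peaks among them, the first in an intron with a SOX octamer. *Actn1* and *Myh9*, of alpha-actinin and non-muscle myosin, had intronic peaks and no SOX4 peak, and *Actn4* had a promoter peak 18.5 kb from SOX4.

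Among signalling genes, 5 of 31 in the list of TGF-beta, EGF receptor and MAPK feedback genes had such a peak. *Dusp7*, a phosphatase gene of ERK, had 2. The EGF receptor ligand genes *Ereg* and *Tgfa* and the Ras-MAPK inhibitor *Spred2* had 1 each, and that of *Spred2* held a SOX octamer in a stretch of 67.4% GC. Of 37 Notch and Wnt genes, 8 had one and 7 an early shared one. The promoter peak of *Fzd2*, a Wnt receptor gene, lay 454 bp from a SOX4 peak. *Notch1* and *Rbpj*, the receptor and the DNA-binding effector, had intronic peaks, and the ligand gene *Jag1* had 1 at 297 kb beside 4 early shared peaks. The *Rbpj* peak held 4 matches to the 10-letter SOX motif, no octamer, and lay 757 kb from SOX4.

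Of 17 SOX family genes found in the annotation 2 had an early SOX11-only peak. At *Sox9* it lay 161 kb upstream and held an octamer and an AP-1 heptamer. At *Sox11* there were 2, both in its single exon, 0.549 and 1.20 kb downstream of the start, with no SOX octamer or AP-1 heptamer. The chromosomal *Sox11* alleles of these cells are floxed and the target of Cre, and the lentivirus carried a *Sox11* coding sequence. From which of these the reads under the peaks came was not tested. No SOX4 peak lay in that exon. The exon of *Sox4*, whose coding sequence was carried by the SOX4-FLAG lentivirus, held no SOX4 peak either. It held 1 SOX11 peak, at row 3954 and so outside the early rows.

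Cell cycle genes had 2 of 22, the promoters of *E2f1* and of *Rbl1*, which encodes the pocket protein p107. Neither gene had a SOX4 peak or any further SOX11 peak, and the *E2f1* peak held a SOX octamer in sequence of 73.6% GC. Of 25 chromatin genes 3 had one. *Kdm6b*, the gene of a demethylase of histone H3 lysine 27, had 2, the first an intronic peak with a SOX octamer and 2 AP-1 heptamers. *Cbx2*, a gene of a Polycomb protein, had a promoter peak that held a SOX octamer, and the gene had no SOX4 peak.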

How the data were processed

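Per the labels and the study's methods, the authors aligned single-end reads to mm9 (Bowtie2), took out duplicates (Picard), called factor-style peaks (HOMER) and discarded blacklisted regions (bedtools), with both replicates of a factor in 1 list. Versions, control and thresholds are not given in the sources used here. The deposited values are start and end coordinates, without counts or signal, so depth is unknown. Of the SOX11 peaks 21255 are 258 bp wide, and 1 of the 809 early SOX11-only peaks is narrower (65 bp).

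Overlaps (at least 1 bp), classes, nearest starts (GENCODE M1 on NCBIM37, the same build as mm9) and motifs were computed with Python 3.11.15, numpy 2.4.6, pandas 2.3.3, pysam 0.24.0 and samtools 1.23.1. Fisher's exact and Wilson values came from scipy 1.17.1, Mantel-Haenszel tests from code tested on simulated data, and Breslow-Day tests from statsmodels 0.14.6. Figures used matplotlib 3.10.9. Peaks and genes named are the first 10 early SOX11-only peaks, 3 on each side of the row limit, the 3 nearest to and farthest from SOX4, the 8 genes with most such peaks, and up to 4 genes by row in each of 11 lists. For 5 of 318 listed genes an older symbol was matched, and *Sox1* was not found. Some genes that this rule names are not reported here. The peaks, lists and motifs were chosen with earlier results of these data known.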

Additional observations from a re-analysis of the deposited data

Results flagged for a closer look

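The 10-letter AP-1 motif was the one motif form whose difference between the early sets was not the same in promoters as elsewhere. In promoters it was present in 36 of 208 early SOX11-only peaks (17.3%) and 32 of 335 early shared peaks (9.55%), with an odds ratio of 1.98 (Fisher's exact test, two-sided, p = 0.0109). Outside promoters it was present in 42.3% of 601 and 45.6% of 983 peaks, with an odds ratio of 0.874 (Fisher's exact test, p = 0.211). The 2 odds ratios differed (p = 0.00322, adjusted p = 0.0193 over 6 motif forms, Breslow-Day chi-square test). The exact AP-1 heptamer pointed the same way, with 8.65% against 5.37% in promoters, an odds ratio of 1.67, but the difference between the classes did not pass after adjustment (adjusted p = 0.138). Later SOX11-only promoter peaks, which were not part of this comparison, held the 10-letter AP-1 motif in 619 of 4172 cases (14.8%). The comparison by class was made after the shares had been seen.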

How the results depend on the processing

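No paired analysis was possible because both replicates of a factor are combined in 1 list, and for the same reason no replicate could be left out. The alternatives by chromosome, by 10 row blocks and those of the comparison with later peaks and of the SOX4 gap were chosen after seeing the data. The SOX motif odds ratio against early shared peaks kept its direction and passed under all 15 alternatives (0.361 to 0.662), as did that against later peaks under all 8 (1.93 to 3.11). The number of early SOX11-only peaks was 189 in rows 1 to 1000 and 2497 in the first 20% of rows, and between 556 and 882 otherwise. The GC odds ratio fell to 1.16 and did not pass over 100 bp around the centre, and passed under the other 10 alternatives. Odds ratios close to 1 turned, none past the threshold: promoter share to 0.972 with SOX4 widened by 500 bp, 0.943 within GC quartiles and 0.998 within chromosomes; AP-1 to 1.11 in the first 20% of rows, 1.01 with centres within 100 bp, 1.04 within GC quartiles and 1.01 within 50 bp of the centre; TEAD to 0.984 and 0.995 within 3 and 10 row blocks and 0.982 within 50 bp of the centre. Against later peaks, the promoter odds ratio turned to 0.830 within GC quartiles and TEAD to 1.01, 1.02 and 1.17 within chromosomes, promoter classes and GC quartiles, and the promoter odds ratio of 1.46 in rows 1 to 1000 passed. The median gap to SOX4 was 91.1 kb in rows 1 to 1000. The cause of these shifts was not tested. Without peak heights or separate replicate lists, neither binding strength nor spread between cultures can be given.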
